A study of Mus musculus with 6 samples.

Results

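The annexin genes were described in dorsal pancreatic buds of mouse embryos treated with inhibitors of the BET proteins. The members were 10 annexin genes given by symbol (Anxa1 to Anxa8, Anxa11 and Anxa13), found through the Entrez gene ID of each row, and all 10 were among the 24010 named genes. They were taken as a family said to be lower under both inhibitors, so their changes against control chose them and are given as a description. Anxa9 and Anxa10, the other annexin genes with a row, were outside the list and are given beside it.

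RNA came from buds dissected at E11.5 and cultured for 24 h, each sample a pool of 10 buds on 1 Affymetrix whole-transcript array. There were 2 arrays with JQ1 at 100 nM, 2 arrays with I-BET151 at 500 nM and 2 control arrays with 0.1% DMSO. JQ1 and I-BET151 block the bromodomains with which BET proteins bind acetylated histones. Nothing in the labels ties the pools to separate litters or cultures, so each p-value rests on pool-to-pool spread that may be technical. Values are normalized intensities on a linear scale, and the median gene lay between 54 and 57 on the arrays. Arrays of the same group correlated at 0.995 to 0.996 over all genes on the log2 scale, and treated against control arrays at 0.990 to 0.993. The progenitor genes Pdx1 and Sox9 were present in the buds, at 228 to 330 and 1418 to 1650 over the 6 arrays. An intensity depends on a gene's probes, so values are compared between arrays and not between genes.

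Annexins are cytosolic proteins that bind acidic phospholipids, phosphatidylserine among them, when calcium rises. A conserved core of repeated domains carries the calcium sites, and a variable N-terminal tail binds partners such as S100 proteins. They take part in membrane repair, vesicle traffic and exocytosis, and some act outside the cell. In the pancreas, Anxa4 is known from ductal and other secretory epithelium, while Anxa1, Anxa2, Anxa5 and Anxa6 are found in many cell types, fibroblasts and endothelium included.

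The members were not all separated from the controls. Anxa2, Anxa3, Anxa4, Anxa5, Anxa6, Anxa7 and Anxa11 had both arrays of each inhibitor below both control arrays. Anxa1 did so under JQ1, but its I-BET151 arrays overlapped with the controls. Anxa8 and Anxa13, which were dim, overlapped with the controls under both inhibitors, with log2 changes of 0.04 each under JQ1 and of -0.12 and -0.10 under I-BET151. By sign alone, 8 of 10 members were negative under JQ1, against 43% of all genes, and 10 of 10 under I-BET151, against 45.4%. Under JQ1, 8 of 10 members thus lay below the controls, against 21% of all genes, and under I-BET151 7 of 10 did, against 20.7%. The median log2 change over the 10 members was -0.45 under JQ1 and -0.33 under I-BET151, beside 0.02 and 0.00 over all 24010 genes. These counts and medians come from the contrasts that chose the members and support nothing further.

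**Figure D1:**
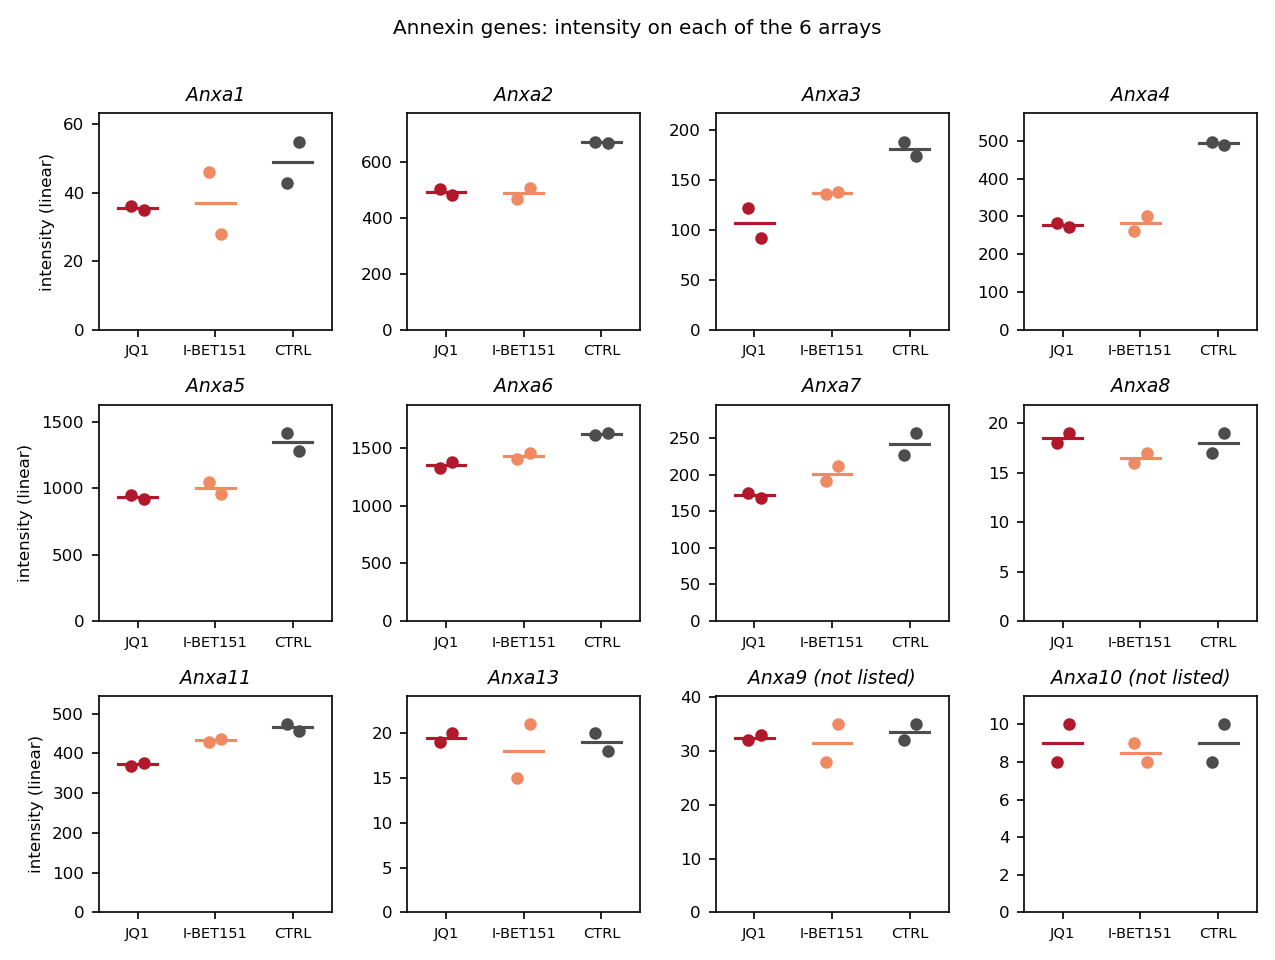
Normalized intensity (linear scale, from 0, a different range in each panel) of the 10 listed annexin genes and of Anxa9 and Anxa10 on each array. Points are single arrays and lines are group means of 2 arrays, with JQ1 on the left, I-BET151 in the middle and control on the right of each panel. In Anxa4 the treated arrays sit between 262 and 300 and the control arrays at 490 and 498. In Anxa8, Anxa13, Anxa9 and Anxa10 each inhibitor group overlaps with the controls.

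Anxa4 encodes a membrane-binding annexin of secretory epithelia and had the largest difference in the family (Entrez ID 11746). Its intensity was 283 and 273 in JQ1 buds, 262 and 300 in I-BET151 buds, and 498 and 490 in control buds. All 4 treated arrays lay far below both controls, and the inhibitor groups overlapped with each other. The group means were 278 ± 7.07 in JQ1 buds, 281 ± 26.9 in I-BET151 buds and 494 ± 5.66 in control buds (SD, n = 2 each). The log2 change was -0.83 ± 0.08 under JQ1 and -0.82 ± 0.08 under I-BET151 (SE), which is 1.78-fold and 1.76-fold lower.

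Anxa2 and Anxa5 were the other members called under JQ1, and Anxa2 had nearly the same change under both compounds. The product of Anxa2 pairs with S100A10 at the cell surface, where the complex binds plasminogen and its activator. Anxa2 (Entrez ID 12306) was at 504 and 482 in JQ1 buds, 469 and 509 in I-BET151 buds, and 675 and 671 in control buds. Its log2 change was -0.45 ± 0.07 under JQ1 and -0.46 ± 0.07 under I-BET151. The treated arrays of both groups interleaved, well under the controls. Anxa5 encodes the phosphatidylserine-binding annexin used as a stain for dying cells. Anxa5 (Entrez ID 11747) was at 950 and 919 in JQ1 buds, 1047 and 959 in I-BET151 buds, and 1418 and 1283 in control buds. Its log2 change was -0.53 ± 0.08 under JQ1 and -0.43 ± 0.08 under I-BET151. Every JQ1 array was under every I-BET151 array here, by a small margin.

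Anxa3, Anxa7 and Anxa11 stood lower in JQ1 buds than in I-BET151 buds, and in I-BET151 buds lower than in controls. Anxa3, an annexin known from neutrophils and endothelial cells (Entrez ID 11745), was at 122 and 92 in JQ1 buds, 136 and 138 in I-BET151 buds, and 188 and 174 in control buds. Its log2 change was -0.77 ± 0.15 under JQ1 and -0.40 ± 0.15 under I-BET151. The JQ1 arrays of Anxa3 were the most spread, with an SD of 21.2 around a mean of 107. Anxa7 encodes synexin, first known for joining secretory granules to membranes. Anxa7 (Entrez ID 11750) was at 175 and 168 in JQ1 buds, 191 and 212 in I-BET151 buds, and 227 and 257 in control buds. Its log2 change was -0.49 ± 0.09 under JQ1 and -0.26 ± 0.09 under I-BET151, where it was -0.17 without CTRL 2. Anxa11 encodes an annexin with a long N-terminal tail that links RNA granules to lysosomes. Anxa11 (Entrez ID 11744) was at 369 and 376 in JQ1 buds, 429 and 436 in I-BET151 buds, and 473 and 457 in control buds. Its log2 change was -0.32 ± 0.06 under JQ1 and -0.10 ± 0.06 under I-BET151, and no array of one group fell within the range of another.

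Anxa6 encodes the largest annexin, whose core is a tandem duplication of that of the others. Anxa6 (Entrez ID 11749) was at 1328 and 1382 in JQ1 buds, 1411 and 1460 in I-BET151 buds, and 1617 and 1635 in control buds. Its log2 change was -0.26 ± 0.06 under JQ1 and -0.18 ± 0.06 under I-BET151. The groups did not overlap, but the shift was the smallest of any member with that pattern under JQ1.

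The dim members Anxa1, Anxa8 and Anxa13 were negative under I-BET151 and of mixed sign under JQ1, with arrays that overlapped with the controls except for Anxa1 under JQ1. Anxa1 encodes the glucocorticoid-induced annexin that signals through formyl peptide receptors. Anxa1 (Entrez ID 16952) was at 36 and 35 in JQ1 buds, 46 and 28 in I-BET151 buds, and 43 and 55 in control buds. The I-BET151 arrays differed from each other by more than either JQ1 array differed from the lower control, and the SE of both log2 changes, -0.45 under JQ1 and -0.44 under I-BET151, was 0.26. The I-BET151 change of Anxa1 was -0.80 without I-BET151 1, -0.08 without I-BET151 2 and -0.26 without CTRL 2, and its JQ1 change was -0.28 without CTRL 2. Anxa8, known from stratified epithelia (Entrez ID 11752), was at 18 and 19 in JQ1 buds, 16 and 17 in I-BET151 buds, and 17 and 19 in control buds. Anxa13, known from intestinal epithelium (Entrez ID 69787), was at 19 and 20 in JQ1 buds, 15 and 21 in I-BET151 buds, and 20 and 18 in control buds. At such levels 1 unit of rounding is a visible step. The unlisted Anxa9 was at 32 and 33 in JQ1 buds, 28 and 35 in I-BET151 buds, and 32 and 35 in control buds. Anxa10, known from stomach, was at 8 and 10 in JQ1 buds, 9 and 8 in I-BET151 buds, and 8 and 10 in control buds, close to the table's lowest value of 5. Both unlisted genes had groups that overlapped under both inhibitors.

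**Figure D2:**
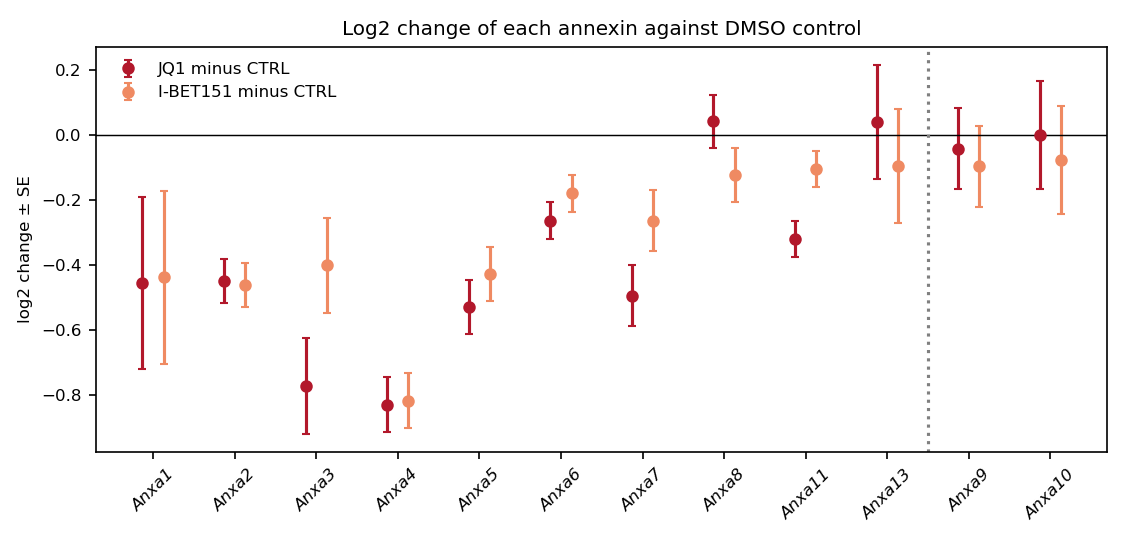
Log2 change against control (y axis) of each annexin gene under JQ1 and under I-BET151, with bars for ± SE from the fit to all 6 arrays. Anxa4 sits at -0.83 and -0.82, Anxa3 differs most between the compounds, and the unlisted Anxa9 and Anxa10, right of the dotted line, sit near 0.

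The changes were computed with limma, fitted over all 24010 genes, with a gene called at a Benjamini-Hochberg adjusted p under 0.05. Under JQ1, 3 of 10 members were called (Anxa2, Anxa4 and Anxa5), against 2.67% of all genes called lower. Under I-BET151, 1 of 10 was called (Anxa4), against 0.87% of all genes called lower, and no member was called higher under either compound. At an unadjusted p under 0.05 the counts were 7 under JQ1 and 6 under I-BET151, against 21.6% and 18.9% of all genes. As the members were chosen on these contrasts, nothing is read from the counts. Without the dimmer 12005 genes, which include Anxa1, Anxa8 and Anxa13, 7 of the 7 members left were called under JQ1 and 3 under I-BET151. Calls rose over all genes too. Of the 12005 genes kept, 1319 were called lower and 1043 higher under JQ1, and 827 and 595 under I-BET151. With 1 array left out of the full table, the median member change lay between -0.48 and -0.37 under JQ1. Under I-BET151 it lay between -0.35 and -0.22. When each array was centred on its median, all genes shifted to medians of 0.08 and 0.05, 3 members were called under JQ1, with Anxa3 in place of Anxa2, and 1 under I-BET151. Over all genes, centring gave 727 lower and 664 higher calls under JQ1 in place of 640 and 272, and 350 and 183 under I-BET151 in place of 209 and 63. Without CTRL 2 the median member change under I-BET151 was -0.22 in place of -0.33.

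The comparison of the inhibitors with each other was not used to choose the members. It sets JQ1 at 100 nM against I-BET151 at 500 nM, so dose and compound cannot be told apart. No annexin differed by the limma test, with adjusted p-values from 0.718 for Anxa11 to 1.0, and no gene of the 24010 was called (0%), although 1610 had an unadjusted p under 0.05 (6.71%). Among the members only Anxa11 had one, at 0.0129. Its log2 difference, JQ1 minus I-BET151, was -0.22 (95% interval -0.36 to -0.07). The differences were -0.37 (-0.75 to 0.01) for Anxa3 and -0.23 (-0.48 to 0.01) for Anxa7. The Anxa3 difference rested on its uneven JQ1 arrays, at -0.57 without JQ1 1 and -0.17 without JQ1 2. For Anxa4 the difference was -0.01 (-0.23 to 0.21) and for Anxa2 0.01 (-0.16 to 0.19). The intervals are for single genes, with no adjustment for their number. The difference was -0.10 (-0.32 to 0.11) for Anxa5 and -0.08 (-0.23 to 0.07) for Anxa6. It was 0.17 (-0.05 to 0.38) for Anxa8, while the intervals of Anxa1 (-0.71 to 0.67) and Anxa13 (-0.32 to 0.59) were too wide to be informative. In 5 of 10 members (Anxa3, Anxa5, Anxa6, Anxa7 and Anxa11) both JQ1 arrays lay below both I-BET151 arrays, against 13.9% of all genes, and Anxa8 had them above. The median difference over the members was -0.05, against 0.00 over all genes.

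**Figure D3:**
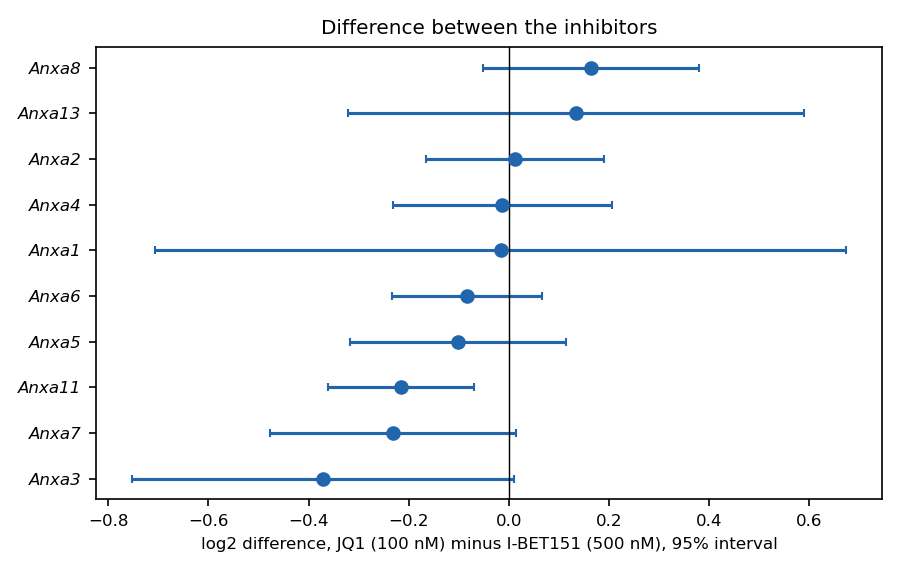
Log2 difference between JQ1 at 100 nM and I-BET151 at 500 nM (x axis) for the 10 listed annexins, with 95% intervals from the fit. The interval of Anxa11, -0.36 to -0.07, is the only one that does not hold 0, and it has no adjustment for the number of genes.

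Sequences upstream of the transcription start are shown for the 3 members called under JQ1. For contrast, that of Anxa8 is shown, whose inhibitor groups both overlapped with the controls. They are RefSeq's, on GRCm38.p6, and a window was found for 7 of the 10 members (9 windows in all), with none for Anxa3, Anxa6 and Anxa13. Each run holds the 250 bases before an annotated start, written 5′ to 3′ along the gene, and lies on chromosome 6 for Anxa4 (chr6:86793585-86793834, minus strand), 9 for Anxa2 (chr9:69453433-69453682, plus strand), 3 for Anxa5 (chr3:36475888-36476137, minus strand) and 14 for Anxa8 (chr14:34085729-34085978, plus strand). Anxa4 has another annotated start further down the gene, and the arrays do not tell which start was used. Capitals mark matches on either strand to the letters TATAAA of the TATA box, GGGCGG of the GC box, CCAAT of the box of that name, TGANTCA of the AP-1 site or CACGTG of the E-box, motifs chosen after the windows had been read. No matches overlapped.
Anxa4: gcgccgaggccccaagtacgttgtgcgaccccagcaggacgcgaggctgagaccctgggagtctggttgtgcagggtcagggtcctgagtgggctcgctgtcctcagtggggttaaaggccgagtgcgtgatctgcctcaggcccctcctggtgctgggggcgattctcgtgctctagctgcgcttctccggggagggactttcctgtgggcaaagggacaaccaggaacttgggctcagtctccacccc
Anxa2: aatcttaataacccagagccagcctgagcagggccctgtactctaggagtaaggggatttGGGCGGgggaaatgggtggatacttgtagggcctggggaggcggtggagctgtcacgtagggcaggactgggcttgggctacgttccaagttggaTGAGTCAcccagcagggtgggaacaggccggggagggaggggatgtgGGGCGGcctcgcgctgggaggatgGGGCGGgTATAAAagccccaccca
Anxa5: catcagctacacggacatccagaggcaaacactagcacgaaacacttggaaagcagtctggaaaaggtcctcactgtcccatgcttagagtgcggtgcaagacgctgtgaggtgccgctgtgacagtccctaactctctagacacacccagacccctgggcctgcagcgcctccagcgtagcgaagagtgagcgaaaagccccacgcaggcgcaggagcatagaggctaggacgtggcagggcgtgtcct
Anxa8: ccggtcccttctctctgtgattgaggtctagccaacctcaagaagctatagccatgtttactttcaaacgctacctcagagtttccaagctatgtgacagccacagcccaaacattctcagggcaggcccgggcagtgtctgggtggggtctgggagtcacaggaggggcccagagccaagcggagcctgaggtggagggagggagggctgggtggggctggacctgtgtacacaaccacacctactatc
These members did not share a motif. The Anxa2 run held a TATA box 17 bases before the start, 3 GC boxes and 1 AP-1 match 95 bases before it. Over all 32851 windows of the same length, 12.4% held TATAAA, 32.7% GGGCGG and 6.75% TGANTCA. The Anxa4, Anxa5 and Anxa8 runs held none of the 5 motifs. Anxa4 and Anxa5 were lower under both inhibitors, and the dim Anxa8 overlapped with the controls. A relation between motifs and changes was not tested. Among the members not printed, Anxa1 had a TATA box 32 bases before its start, Anxa11 had 3 GC boxes, and both windows of Anxa7 held GC boxes, the second also an E-box. CCAAT was in none of the 9 windows and in 33.8% of all windows, and CACGTG in 6.02% of all windows. A match in these letters is a description and not evidence of a site in use.

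Genes related to annexins, not all of them annexin partners, were taken from 6 lists, of which 89 of 96 genes were measured. Under JQ1, 10 of the 89 fell and 2 rose, 12 in all against 3.8% of all genes, and under I-BET151 1 fell and none rose, against 1.13%. By direction, 2.67% of all genes were called lower and 1.13% higher under JQ1, and 0.87% and 0.262% under I-BET151. These shares apply to the call counts of each list below, where a single call describes that gene and not its list. No gene of these lists was called between the compounds. The median log2 change of the 89 genes was -0.14 under JQ1 and -0.12 under I-BET151, beside 0.02 and 0.00 over all genes.

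Among 14 measured S100 genes, which encode small calcium-binding partners of annexin tails, S100a6 fell under both inhibitors and no other was called. S100a6, whose product binds annexins A2 and A11, was at 45 and 36 in JQ1 buds, 57 and 65 in I-BET151 buds, and 133 and 148 in control buds. The treated arrays were all far below the controls, with log2 changes of -1.80 under JQ1 (limma adjusted p = 0.0154) and -1.20 under I-BET151 (adjusted p = 0.0469). S100a10, the partner of Anxa2, was at 501 and 462 in JQ1 buds, 486 and 482 in I-BET151 buds, and 591 and 637 in control buds. Its arrays did not overlap with the controls, but its log2 changes of -0.35 and -0.34 were not called (adjusted p = 0.0785 and 0.118). S100a11 was not analysed here.

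Of 19 genes for membrane repair and annexin-binding proteins, 5 fell under JQ1, against 2.67% of all genes called lower. None was called under I-BET151 by limma, where 6 had an unadjusted p under 0.05, against 18.9% of all genes. Capn1 and Capn2 encode calpains, calcium-dependent proteases that act at membrane wounds. Capn1 was at 106 and 128 in JQ1 buds, 128 and 141 in I-BET151 buds, and 240 and 219 in control buds (log2 change under JQ1 -0.98, adjusted p = 0.0306). Capn2 was at 714 and 666 in JQ1 buds, 768 and 767 in I-BET151 buds, and 934 and 955 in control buds (-0.45, adjusted p = 0.0370). All treated arrays of both calpain genes were below both controls. The caveolin genes Cav1 and Cav2, which encode coat proteins of membrane pits, fell under JQ1 with log2 changes of -0.63 (adjusted p = 0.0343) and -0.86 (adjusted p = 0.0253). Myof, the ferlin gene myoferlin, fell by 0.55 on the log2 scale under JQ1, and was the fifth called gene of this list, chosen after its values were seen.

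Plau was the 1 called gene of 7 measured for plasminogen activation. It encodes urokinase, a plasminogen activator, and was at 108 and 78 in JQ1 buds, 112 and 137 in I-BET151 buds, and 242 and 312 in control buds. The treated arrays lay under the controls, with log2 changes of -1.58 under JQ1 (adjusted p = 0.0383) and -1.15 under I-BET151, not called (adjusted p = 0.101).

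The 18 measured genes for exposing or binding phosphatidylserine went both ways under JQ1, where 3 fell and 1 rose, against 2.67% and 1.13% of all genes. Stab2 and Pros1 fell, with log2 changes of -1.01 (adjusted p = 0.0264) and -0.80 (adjusted p = 0.0347), and Axl fell by 0.37 on the log2 scale (adjusted p = 0.0482). Stab2 encodes a scavenger receptor of sinusoidal endothelium, Pros1 protein S, which binds phosphatidylserine, and Axl a receptor kinase whose ligand is Gas6. Stab1, the related scavenger receptor gene of macrophages and endothelium, rose and was at 564 and 601 in JQ1 buds, 567 and 489 in I-BET151 buds, and 312 and 361 in control buds. Its log2 changes were 0.79 (adjusted p = 0.0403) and 0.65, not called under I-BET151 (adjusted p = 0.0867). No gene of this list was called under I-BET151 by limma, and 7 had an unadjusted p under 0.05, against 18.9% of all genes.

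The remaining lists were nearly without calls. Of 24 genes for C2-domain proteins, another class that binds membranes when calcium rises, Esyt2 rose under JQ1, to 890 and 860 in JQ1 buds and 810 and 804 in I-BET151 buds, against 633 and 630 in control buds (log2 change 0.47, adjusted p = 0.0274 under JQ1, and 0.35, adjusted p = 0.0713, under I-BET151). Of 7 measured formyl peptide receptor and arachidonate genes, none was called by limma under JQ1 or I-BET151. There, 3 and 4 had an unadjusted p under 0.05, against 21.6% and 18.9% of all genes.

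**Figure D4:**
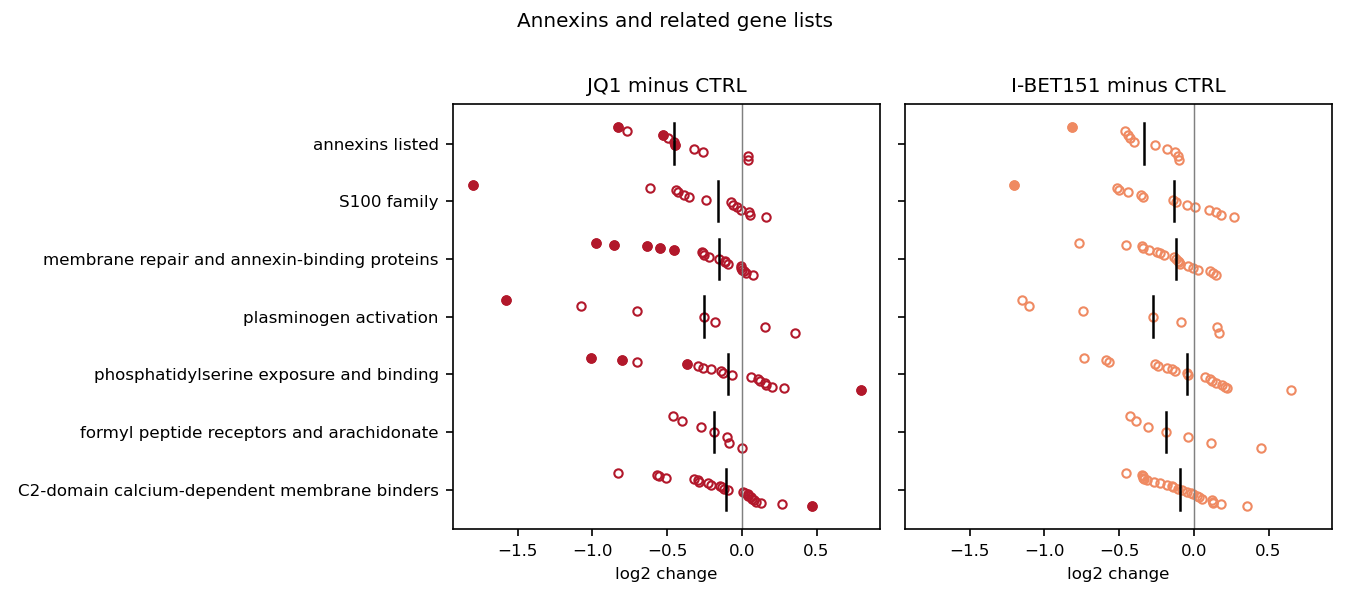
Log2 change against control (x axis) of each measured gene in the annexin family and in 6 related lists, under JQ1 on the left and I-BET151 on the right. Filled points are genes called by limma over all genes, open points are not called, and black bars are medians of a list. The S100 point at -1.80 under JQ1 and -1.20 under I-BET151 is S100a6.

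Markers of several cell types of the bud were lower in the same arrays. In bulk tissue, fewer cells of a type and less RNA per cell cannot be told apart. The summed intensity of the 10 annexins was 3766 to 3804 in JQ1 buds, 4022 to 4080 in I-BET151 buds and 5059 to 5176 in control buds, or 0.740 and 0.792 times the control mean. The 13 endothelial markers summed to 4899 to 4937 in JQ1 buds, 5144 to 5548 in I-BET151 buds and 7007 to 7224 in control buds, or 0.691 and 0.751 times the control. Of these, 6 fell under JQ1 and 2 under I-BET151, Eng and Tek, against 2.67% and 0.87% of all genes called lower. All 13 had negative log2 changes under both, against 43% and 45.4% of all genes. The same shares apply to the counts of falls and of signs in the other marker lists. The 14 mesenchyme markers summed to 14525 to 14641 in JQ1 buds, 14845 to 15206 in I-BET151 buds and 17194 to 17523 in control buds, with 4 falls under JQ1 and 2 under I-BET151, Postn and Dcn. A sum leans on bright genes, such as Vim in the mesenchyme list, at 6616.5 in JQ1 buds, 6598 in I-BET151 buds and 7075.5 in control buds on average. The median log2 change of the mesenchyme markers was -0.48 under JQ1 and -0.40 under I-BET151, and that of the endothelial markers -0.46 and -0.34, beside -0.45 and -0.33 for the annexins.

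The 8 measured neural and neural crest markers summed to 1056 to 1124 in JQ1 buds, 1125 to 1228 in I-BET151 buds and 2106 to 2211 in control buds, with 3 falls under JQ1 and 2 under I-BET151, Stmn2 and Ednrb, and median log2 changes of -0.34 and -0.46. The 15 epithelial markers moved less, at 6700 to 7378 in JQ1 buds, 6793 to 6997 in I-BET151 buds and 7449 to 7514 in control buds. Cldn3 fell under both inhibitors and Krt18 under JQ1 in that list, whose median log2 changes were -0.12 and -0.08. The 11 macrophage markers summed to 5819 to 6165 in JQ1 buds, 5925 to 6389 in I-BET151 buds and 5569 to 5984 in control buds. None was called under either by limma. An unadjusted p under 0.05 was found for 6 under JQ1 and 4 under I-BET151, against 21.6% and 18.9% of all genes. Under JQ1, 4 lay below the controls and 5 above, against 21% and 23.9% of all genes. Under I-BET151, 3 lay below and 4 above, against 20.7% and 21.5%.

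The liver list of 9 genes was uneven between arrays, at 2906 to 4773 in JQ1 buds, 2882 to 4410 in I-BET151 buds and 4640 to 4887 in control buds. The 7 mesothelial markers summed to 2418 to 2594 in JQ1 buds, 2728 to 2759 in I-BET151 buds and 2535 to 2626 in control buds, with 1 fall, Upk3b under JQ1. Under JQ1, 4 of the 7 lay below the controls, against 21% of all genes, and 3 above, against 23.9%. Among the 3 above was Wt1, which was not called. It was at 1229 and 1112 in JQ1 buds, 1227 and 1216 in I-BET151 buds, and 919 and 911 in control buds. The 7 erythroid markers summed to 9319 to 9343 in JQ1 buds, 8694 to 9062 in I-BET151 buds and 8939 to 9747 in control buds. None was called by limma, and 1 under JQ1 and 2 under I-BET151 had an unadjusted p under 0.05, against 21.6% and 18.9% of all genes. The 11 stomach and intestine markers summed to 1765 to 1872 in JQ1 buds, 1520 to 1722 in I-BET151 buds and 1531 to 1549 in control buds, with 1 fall under each, Vil1, while 4 had negative and 6 positive log2 changes under each inhibitor. No marker sat at the lowest value of 5 on every array. The part of these shifts in the annexin values was not tested.

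**Figure D5:**
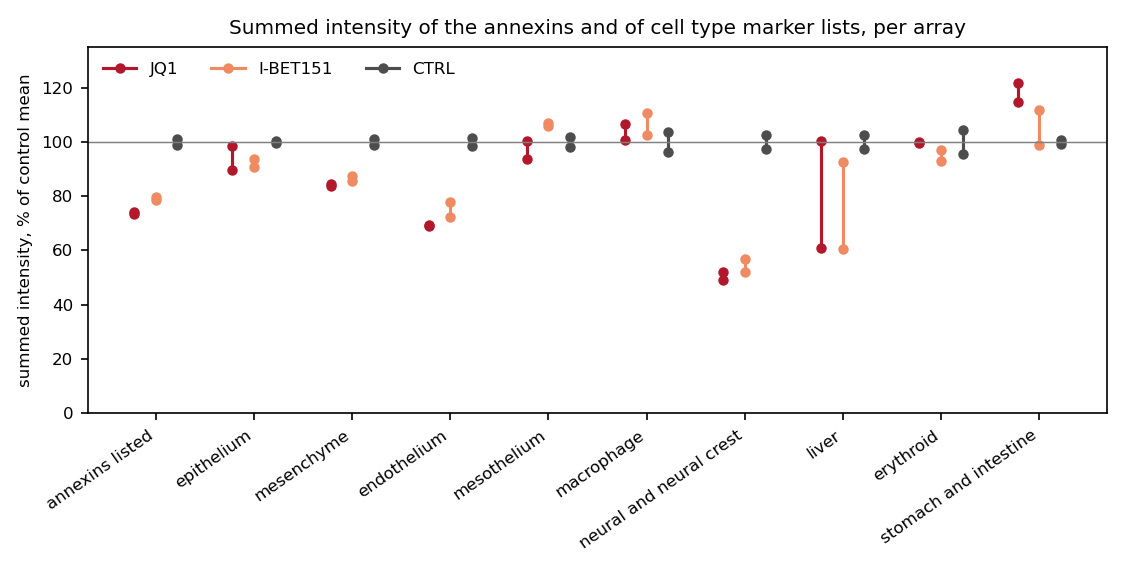
Summed intensity per array of the 10 annexins and of 9 cell type marker lists, as a percentage of the control mean of that list (y axis, from 0). Points are arrays, joined within a group. The annexins sit below every control array under both inhibitors, as do the epithelial, endothelial, mesenchymal and neural lists, while the macrophage list does not.

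The genes most like the annexins over the 6 arrays were found by the root mean square distance between log2 values centred on each gene's mean, among 11998 genes brighter than the median gene. The mean profile of the 10 members was nearest to Vps52, Adgre5 and P2ry2, at distances of 0.029, 0.030 and 0.030 on the log2 scale. Adgre5 encodes the adhesion receptor CD97 and was at 580 and 580 in JQ1 buds, 604 and 642 in I-BET151 buds, and 769 and 805 in control buds. Vps52 encodes a subunit of a vesicle tethering complex and was at 403 and 377 in JQ1 buds, 392 and 422 in I-BET151 buds, and 516 and 514 in control buds. P2ry2, a receptor gene for extracellular nucleotides, was at 52 and 50 in JQ1 buds, 52 and 55 in I-BET151 buds, and 64 and 66 in control buds.

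Anxa4 had its nearest genes in Timp1, Adcy4 and Lgals1, at 0.037, 0.042 and 0.053. Timp1 encodes an inhibitor of matrix metalloproteinases and was at 88 and 86 in JQ1 buds, 85 and 96 in I-BET151 buds, and 159 and 147 in control buds. Adcy4, an adenylate cyclase gene, was at 64 and 67 in JQ1 buds, 61 and 71 in I-BET151 buds, and 116 and 120 in control buds. Lgals1 encodes galectin-1 and was at 960 and 1017 in JQ1 buds, 864 and 1034 in I-BET151 buds, and 1713 and 1706 in control buds. In all 3, as in Anxa4, the inhibitor groups overlapped with each other and lay below the controls. The likeness is over 6 arrays that share their groups and says nothing of shared control.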

How the data were processed

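The deposited table holds 1 intensity per gene ID and array, on a linear scale and in whole numbers. Per the submitters' processing notes, the authors used RMA, which corrects background, makes the arrays' distributions equal and summarises probes. No source used here says how probes were combined per gene. A shift common to most transcripts is lost in RMA, and rounding makes coarse steps among dim genes. Of 24972 rows, 24014 had 1 symbol in the platform's annotation, none had several and 958 had none listed. For 4 symbols with more than 1 row the brightest was kept, which left 24010 genes. Limma 3.58.1 in R 4.3.3 was fitted to log2(intensity) of all 6 arrays with no pseudocount and no filter (3 residual and 1.76 prior degrees of freedom), with Benjamini-Hochberg adjustment over 24010 genes. The fit was also run on simulated data, with independent noise and changes only in genes brighter than the median. That run does not bear on dim genes or on pools that share a litter or culture. The members and lists were chosen with earlier results of these data known. Named genes were all annexins, S100a10, S100a11, up to 4 called genes per related list, up to 2 called genes per marker list for illustration, and the 3 nearest profiles. Named beyond this rule were Myof, called in the membrane repair list, and Pdx1, Sox9, Vim and Wt1, which were not called. Alternatives were array centring, a filter on dim genes, log2(intensity + 16), an intensity trend in the prior, the replicate number as a block, and leaving out each array. With 2 arrays per group, the number of arrays limits the precision.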

Additional observations from a re-analysis of the deposited data

How the results depend on the processing

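Every called annexin kept its negative sign under all alternatives run, while the number of calls depended on the processing. Under JQ1, where 3 members were called, 7 were called without the dimmer 12005 genes, 7 with log2(intensity + 16) and 5 with an intensity trend, and 0 with the replicate block. Over all genes, 640 of 24010 were called lower under JQ1 in the main fit. The same settings gave 1319 of 12005, 1001 of 24010, 843 of 24010 and 0 of 24010. Under I-BET151, where 209 of 24010 were called lower, they gave 827 of 12005, 448, 297 and 0. The block thus removed every call, not those of annexins alone. Member counts under I-BET151, where 1 was called, were 3, 2, 2 and 0. With 1 array left out in turn they were 0 in every fit, or, with the dimmer genes also left out (chosen after seeing the data), 2 to 6 under JQ1 and 1 to 4 under I-BET151. Over the full table, leaving out 1 array removed every call, as the block did, and not those of annexins alone. With the dimmer genes also left out, genes outside the family were called in these fits too. Each such fit leaves 1 array in a group, so nothing is read from its counts. The labels do not say whether same-numbered arrays share a litter or culture day. Deviations from the group means of same-numbered arrays correlated at -0.04 to -0.02 over all genes. That cannot exclude a pairing that affects few genes, so whether the block fits the design is not known.

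The median member change under JQ1 was -0.39 with arrays centred, -0.49 without dim genes, -0.38 with log2(intensity + 16) and -0.48 to -0.37 with 1 array left out (-0.52 to -0.45 without dim genes too). Under I-BET151 it was -0.28, -0.40, -0.28 and -0.35 to -0.22 (-0.46 to -0.35). Between the compounds it was -0.10 without dim genes and -0.108 to -0.036 with 1 array left out (-0.156 to -0.101 without dim genes too, and -0.125 without JQ1 1), and no member was called under any setting. Differences near 0 between the compounds changed sign: Anxa4 was at 0.00082 with arrays centred, and with 1 array left out the ranges were -0.37 to 0.34 for Anxa1, -0.046 to 0.072 for Anxa2, -0.110 to 0.085 for Anxa4 and -0.11 to 0.38 for Anxa13.

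For the related lists, 12 and 1 of 89 genes were called under JQ1 and I-BET151. I-BET151 gave 4 with arrays centred, 13 of 58 without dim genes, 4 with log2(intensity + 16) and 2 with the trend. JQ1 gave 11, 16 of 58, 15 and 13. Over all genes, calls under I-BET151 also rose from 209 lower and 63 higher. In those settings they were 350 and 183, 827 and 595 of 12005, 448 and 213, and 297 and 149. Under JQ1 the 640 lower and 272 higher became 727 and 664, 1319 and 1043 of 12005, 1001 and 614, and 843 and 534. The block gave 0 under both compounds, over all 24010 genes as well as in these lists. Leaving out 1 array gave 0, or 9 to 18 under JQ1 and 2 to 8 under I-BET151 without dim genes. The fits with 1 array left out removed every call over the full table, not those of these lists alone. Without dim genes, genes outside these lists were called in such fits too. As 1 array is then left in a group, nothing is read from their counts. The causes of the changes in calls were not tested.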
